A study of Mus musculus with 6 samples.

Results

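The genes described here are 10 genes of the contractile apparatus of smooth muscle cells and myofibroblasts: Acta2, Actg2, Tagln, Cnn1, Myh11, Myl9, Tpm1, Tpm2, Des and Smtn. They were chosen by symbol, and all 10 were found among the 30281 gene symbols of the deposited table, with 1 transcript each for Acta2, Tagln, Cnn1 and Myh11 and up to 21 transcripts for Tpm1. RNA was measured by RNA-Seq in 6 mouse libraries. Mouse embryo fibroblasts (MEFs) gave 1 library of Tsc2-/- cells and 1 library of Tsc2+/+ cells, both untreated and both labelled p53-/-, a label that the control shares. MKOC cells and TJ cells are both labelled as Tsc2-null mouse kidney epithelial cells, and TJ cells came from a secondary tumor in C57BL6 mice. Each kidney line gave 1 untreated library and 1 library of cells exposed to 100 nM rapamycin, an inhibitor of mTORC1, for 18 hours. The treatment protocol, 18 hours in serum-free DMEM with 0.1% BSA, is shared by all 6 samples. The labels thus do not show serum withdrawal to differ between treated and untreated libraries. No kidney line with intact Tsc2 was analysed here, so the kidney libraries carry no comparison of genotypes, and each genotype of MEF is 1 line with 1 library.

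Lymphangioleiomyomatosis (LAM) is a lung disease in which cells that have lost TSC2 carry proteins of smooth muscle, and smooth muscle actin is a customary stain for them. Smooth muscle contracts when filaments of smooth muscle myosin, with its heavy chain and regulatory light chain, pull on filaments of smooth muscle actin that are wrapped by tropomyosin and decorated by calponin and transgelin. Desmin forms the intermediate filaments that tie the contractile units together, and smoothelin binds actin. Many of these genes are switched on by serum response factor (SRF), which binds a DNA element called the CArG box and works with the coactivators myocardin and the myocardin-related factors. Myofibroblasts, activated fibroblasts that lay down matrix, turn on part of the same set, whereas every fibroblast and epithelial cell expresses non-muscle relatives of these proteins.

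The CArG boxes next to the start sites are shown because they are the elements through which SRF acts on this set. A CArG box is 10 bases long, with CC at one end, GG at the other and 6 bases between them that are A or T. Windows of 250 bases before and 50 bases after the annotated start were available from RefSeq (GRCm38.p6) for 7 of the 10 genes (Acta2, Cnn1, Myl9, Tpm1, Tpm2, Des and Smtn), and the 250 bases upstream were searched on both strands, allowing 1 departure among the 6 inner bases and none in CC and GG. Acta2 had 2 boxes with 1 departure each, beginning 84 and 34 bases before the start used by RefSeq, and Myl9 had 1 exact box 161 bases and 1 box with 1 departure 99 bases before the start. In GENCODE M21, the source of gene positions here, Acta2 extends upstream to chr19:34255590, so that both of its boxes lie inside the gene by that annotation. The 30 bases around each box are given 5′ to 3′ along the gene, with the box in capitals, for Acta2 at chr19:34255438-34255467 and chr19:34255388-34255417 (minus strand) and for Myl9 at chr2:156775293-156775322 and chr2:156775355-156775384 (plus strand).
Acta2, box at 84: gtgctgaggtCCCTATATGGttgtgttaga
Acta2, box at 34: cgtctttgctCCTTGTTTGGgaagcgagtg
Myl9, box at 161: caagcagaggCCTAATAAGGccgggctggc
Myl9, box at 99: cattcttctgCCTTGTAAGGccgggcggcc
Across all 32851 windows of this size, 1.47% held an exact box, 8.59% held a box with at most 1 such departure and 0.670% held at least 2 boxes. The windows of Cnn1, Tpm1, Tpm2, Des and Smtn held no box by this rule in the 250 bases searched.

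Before the levels themselves, the identity of the libraries was checked. Estimated counts summed to between 22887020 and 37505004 per library. Tsc2 RNA stood at 22.6 TPM in Tsc2+/+ MEFs, 10.5 in Tsc2-/- MEFs and between 19.1 and 49.1 in the kidney libraries, and since the deleted part of the gene is not given in the sources used here, this level does not check the genotype. Trp53 RNA was at 26.3 and 28.6 TPM in the Tsc2+/+ and Tsc2-/- MEF libraries, so it does not check the p53-/- label either. The fibroblast collagens Col1a1, Col1a2 and Col3a1 were at 274 to 996 TPM in both MEF libraries and at most 1.07 TPM in the kidney libraries. Other genes of the same list of 9 fibroblast markers did not separate the libraries in this way: Vim was at 3522 and 1118 TPM in Tsc2+/+ and Tsc2-/- MEFs and 3609 to 7523 TPM in the kidney libraries, Fbln2 at 63.8 and 344 against 94.5 to 137, and Dcn at 7.08 and 422 against 6.73 to 50.4. In each kidney library 5 of 10 epithelial markers and 5 of 11 kidney markers reached 1 TPM. Among those that did, Cdh1, Krt8, Krt18, Pax8 and Cdh16 were at 101 to 990 TPM there, while Epcam was at most 0.0267 TPM in the kidney libraries and Umod was listed at 0 in all 6 libraries. Markers of mesothelial cells, the lining of body cavities, summed to 533 TPM in the Tsc2-/- library of MEFs against 2.71 TPM in the Tsc2+/+ library, with Wt1 at 81.6 against 0.0668 TPM and Upk3b at 154 TPM against 0. All 7 of the 8 mesothelial markers that reached 1 TPM in a MEF library were at least 2-fold higher in Tsc2-/- MEFs, beside 25.2% of all 12771 genes at that level. Calb2 was listed at 0 in every library. The part of mesothelial cells in the differences between the MEF libraries was not tested. In bulk RNA, fewer cells of a type and less RNA per cell cannot be told apart.

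The levels separated a few genes that all 6 libraries expressed from a larger group that reached 10 TPM in MEF libraries alone or in none. TPM is an abundance scaled to transcript length and library size, so it can be compared between genes. In Tsc2+/+ MEFs 5 of the 10 genes reached 10 TPM, in Tsc2-/- MEFs 7 did, and in each of the 4 kidney libraries 2 did, which were Tpm1 and Smtn. The order of levels in both MEF libraries began with Tpm1, Acta2 and Tpm2. Their 95% intervals from counting (Wilson) do not overlap within a library, with 320 to 330, 221 to 229 and 76.3 to 82.1 TPM in Tsc2+/+ MEFs. In the kidney libraries Tpm1 was followed by Smtn and then Des, and Tagln, Acta2, Actg2, Cnn1 and Tpm2 shared a range of 0.120 to 0.767 TPM in which the counting intervals of neighbours in the order overlap. These intervals and the floor of 3 counts used below cover counting error only.

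**Figure D1:**
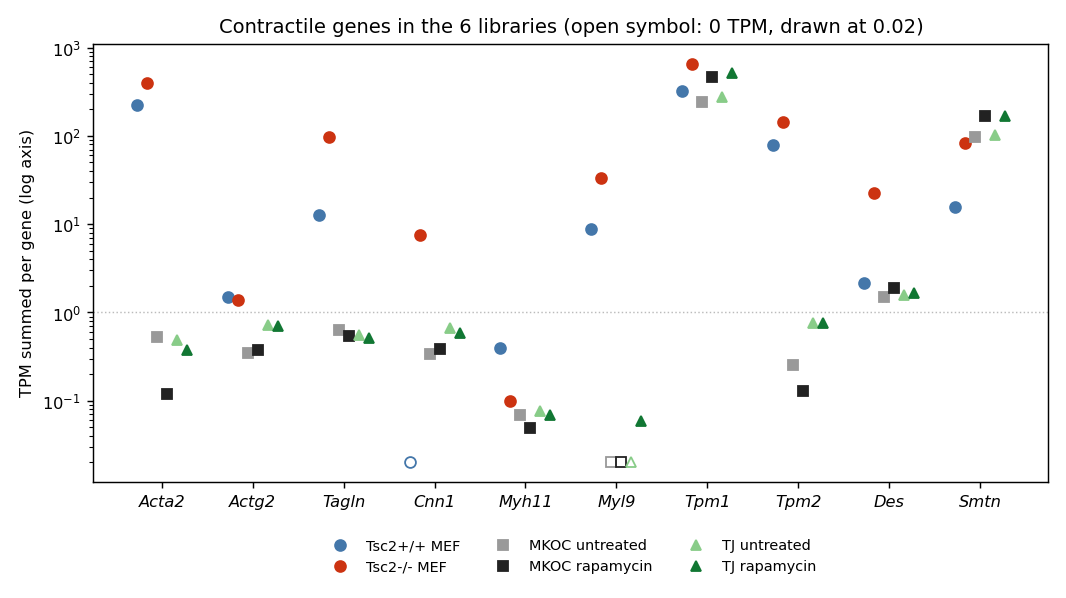
TPM of the 10 contractile genes (log axis) in the 6 libraries, 1 point per library, with open symbols for genes listed at 0. Tpm1 lay between 244 and 653 TPM in all 6 libraries, whereas Acta2 was at 225 and 394 TPM in the MEF libraries and at most 0.529 TPM in the kidney libraries.

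Among the actins, Acta2, which encodes smooth muscle alpha-actin, was at 225 TPM in Tsc2+/+ MEFs, 394 in Tsc2-/- MEFs, 0.529 and 0.120 in untreated and rapamycin-treated MKOC cells, and 0.485 and 0.379 in untreated and rapamycin-treated TJ cells. These kidney values rest on 17, 3, 14 and 11 estimated counts, against 11258 and 9755 counts in the MEF libraries. Both MEF libraries were high and all 4 kidney libraries were near the limit of detection, with no overlap. Actg2, the gamma-actin of enteric smooth muscle, was low everywhere, at 1.48 and 1.40 TPM in Tsc2+/+ and Tsc2-/- MEFs and between 0.346 and 0.722 TPM in the kidney libraries. Acta2 held 7.29% of the summed TPM of the 6 actin genes in Tsc2+/+ MEFs and 7.46% in Tsc2-/- MEFs, and at most 0.0166% in a kidney library. The remainder was nearly all cytoplasmic actin, with Actb at 1211 to 2313 TPM and Actg1 at 1072 to 2690 TPM over the 6 libraries.

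Of the proteins that sit along the actin filament, Tagln (transgelin, also called SM22-alpha) was at 12.9 TPM in Tsc2+/+ MEFs, 95.9 in Tsc2-/- MEFs, 0.638 and 0.548 in MKOC cells and 0.552 and 0.511 in TJ cells, untreated and treated. The Tsc2-/- MEF library stood far above the Tsc2+/+ library, and the kidney libraries lay close together below both. Tagln overlaps exons of Pcsk7 on the opposite strand, and 4.09% of its 31-base words also occur in transcripts of other genes in the table, mostly Pcsk7, the largest share among the 10 genes. Cnn1, smooth muscle calponin, was listed at 0 in Tsc2+/+ MEFs and had 7.62 TPM (258 counts) in Tsc2-/- MEFs. Its kidney values were 0.341 and 0.381 TPM in MKOC cells and 0.659 and 0.580 in TJ cells, so the kidney libraries fell between the MEF libraries. Smtn, smoothelin, ran the other way: it was at 15.8 TPM in Tsc2+/+ MEFs and 82.4 in Tsc2-/- MEFs, and at 97.0, 168, 102 and 170.0 TPM in untreated and treated MKOC and untreated and treated TJ cells. Every kidney library was above both MEF libraries for Smtn. The transcript Smtn-202 carried 1156 to 6461 counts per library, and the short coding transcript Smtn-201 carried 8.83 to 44.7 counts.

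The tropomyosins differed from each other. Tpm1, which encodes alpha-tropomyosin of muscle and, through other transcripts, of non-muscle cells, was at 325 and 653 TPM in Tsc2+/+ and Tsc2-/- MEFs, at 244 and 459 in untreated and treated MKOC cells, and at 278 and 519.6 in untreated and treated TJ cells. The treated kidney libraries lay between the MEF libraries and the untreated ones below both. Tpm2, beta-tropomyosin, was at 79.2 and 142 TPM in the MEF libraries and at 0.254, 0.131, 0.767 and 0.766 TPM in the kidney libraries in the same order, where it rested on 4 to 17 counts. Tpm1 held 44.9% and 46.9% of the summed TPM of the 4 tropomyosin genes in the MEF libraries, 24.1% and 25.2% in untreated MKOC and TJ cells and 35.5% and 38.6% in the treated ones. Tpm2 held 10.95% and 10.17% in the MEF libraries and at most 0.0697% in a kidney library.

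Among the myosin subunits, Myl9, the regulatory light chain of smooth muscle myosin, was at 8.88 TPM in Tsc2+/+ MEFs and 33.6 in Tsc2-/- MEFs. It was listed at 0 in 3 kidney libraries and at 0.0584 TPM, from 1 count, in treated TJ cells. A count of 3 in these 4 libraries would have been worth 0.158 to 0.203 TPM, so Myl9 was not detectable above that level. The related non-muscle light chains Myl12a and Myl12b were at 543 to 704 and 346 to 545 TPM in the kidney libraries, and Myl9 held 2.002% and 3.922% of the 3 genes' TPM in Tsc2+/+ and Tsc2-/- MEFs. Myh11, the smooth muscle myosin heavy chain and the most specific marker of mature smooth muscle in the set, reached 1 TPM in no library. It was at 0.393 TPM (80 counts) in Tsc2+/+ MEFs, 0.100 (10 counts) in Tsc2-/- MEFs and 0.0497 to 0.0772 in the kidney libraries, and it held at most 0.370% of the TPM of Myh9, Myh10 and Myh11 in any library.

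Des, desmin, was at 2.13 TPM in Tsc2+/+ MEFs, 22.7 in Tsc2-/- MEFs, and between 1.5 and 1.91 TPM in the 4 kidney libraries. The low values rest in large part on 2 short transcripts with a retained intron. The full-length coding transcript Des-201 was at 0.660 TPM in Tsc2+/+ MEFs, 22.4 in Tsc2-/- MEFs and 0.577 to 0.696 in the kidney libraries. Vim, vimentin, the intermediate filament protein of mesenchymal cells, was at 3522 TPM in Tsc2+/+ MEFs, 1118 in Tsc2-/- MEFs and 3609 to 7523 in the kidney libraries, above Des in all 6.

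**Figure D2:**
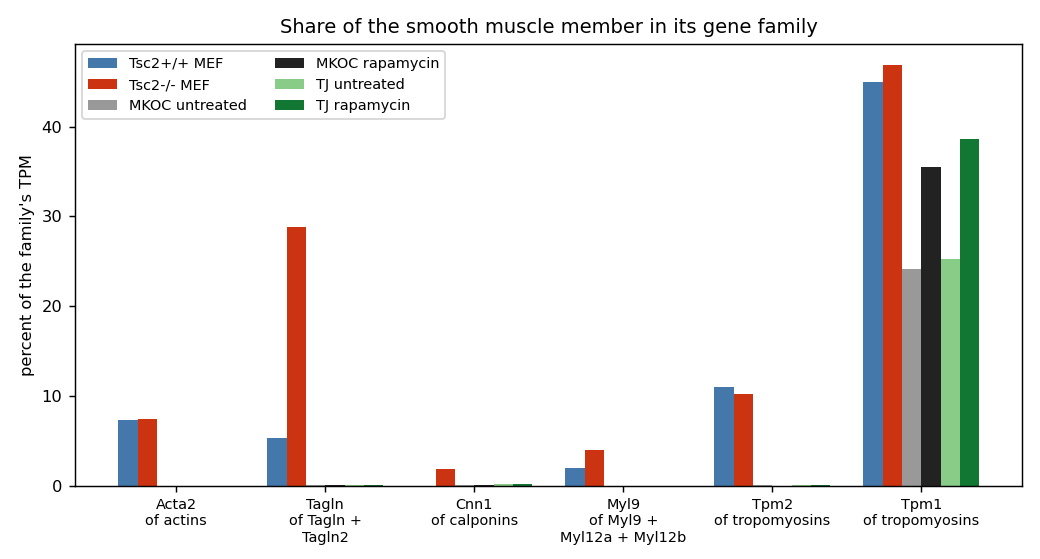
Percent of the summed TPM of a gene family held by a member of the contractile set, with 1 bar per library. Tpm1 is counted over all its transcripts, those of non-muscle cells included. Tagln held 5.30% of the transgelin TPM in Tsc2+/+ MEFs and 28.8% in Tsc2-/- MEFs, and among the families plotted only Tpm1 held more than 1% in a kidney library.

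Set against the MEF libraries, the kidney libraries had lower levels of most of the set. Of the 9 genes with at least 1 TPM in some library, 6 (Acta2, Actg2, Tagln, Myl9, Tpm2 and Des) were lower in all 4 kidney libraries than in both MEF libraries, and 21.4% of all 13913 genes at that level were. Smtn was higher in all 4 kidney libraries than in both MEF libraries, as were 26.8% of all genes, and Cnn1 and Tpm1 overlapped. For Des the counting interval in Tsc2+/+ MEFs, 1.73 to 2.63 TPM, overlapped those of the kidney libraries, as in treated MKOC cells (1.42 to 2.57 TPM), and its coding transcript Des-201 was not lower in every kidney library. The intervals of Actg2 overlapped too, with 0.950 to 2.07 TPM in Tsc2-/- MEFs and 0.438 to 1.19 TPM in untreated TJ cells. Cell type, line and genotype differ together between these libraries and cannot be told apart. Between the kidney lines, none of the 3 contractile genes with at least 1 TPM in a kidney library (Tpm1, Smtn and Des) differed 2-fold between TJ and MKOC cells on the log2(TPM + 1) scale, and 1.27% of 12414 genes did so in both treatments. Tpm1 was higher in TJ cells by 0.18 on that scale both untreated and treated, and Smtn by 0.07 and 0.02. With 1 library per line and treatment, these differences have no replicate check.

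The comparison of Tsc2-/- with Tsc2+/+ MEFs asks how RNA differs with loss of Tsc2. With 1 library per genotype there is no test, and the differences below are between these libraries. Of the 9 contractile genes with at least 1 TPM in 1 of the MEF libraries, 6 were at least 2-fold higher in Tsc2-/- MEFs on the log2(TPM + 1) scale (Tagln, Cnn1, Myl9, Tpm1, Des and Smtn) and none was 2-fold lower. Over all 12771 such genes 25.2% were at least 2-fold higher and 5.18% at least 2-fold lower, and the median log2 difference was 1.81 for the contractile genes and 0.45 for all. The libraries also differed in other measures, whose part in this shift was not tested. Transcripts shorter than 300 bases held 20.9% of all TPM in Tsc2+/+ MEFs and 7.12% in Tsc2-/- MEFs, and the median ratio of the 7377 genes with at least 10 TPM in both was 1.31. After TPM was scaled so that this ratio became 1, 5 of the 9 contractile genes were at least 2-fold higher and 0 lower, Tpm1 having dropped out, and 15.8% of all genes were at least 2-fold higher and 8.21% lower. Given these shares, the count for the contractile genes is a description and no test of the set. The mesothelial markers moved the same way between these libraries, 2.71 against 533 TPM in sum, and their part was not tested. Of the fibroblast markers, 4 of 8 were at least 2-fold higher and 1 lower in the Tsc2-/- library, and the list summed to 5377 TPM in the Tsc2+/+ library, of which 3522 were Vim, and to 3941 TPM in the Tsc2-/- library, of which 1118 were Vim.

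Cnn1 had a log2 difference of 3.11 (2.77 after scaling), the largest of the 10 on both scales. Since it was listed at 0 in Tsc2+/+ MEFs, this value and its rank depend on the scale: with 5 TPM added it was 1.34, below Tagln, Smtn, Des and Myl9, and in CPM it was 3.55 against 3.66 for Des. Against the floor of 3 counts in that library (0.0437 TPM), Cnn1 in Tsc2-/- MEFs was 174-fold higher in unscaled TPM. That value is not corrected for the median ratio of 1.31 between the libraries. Des followed at 2.92 (2.55 after scaling). Its ratio of TPM without an added value was 10.6, and its ratio of CPM (counts scaled to library size only) was 17.6 because the short transcripts weigh less in CPM. Tagln was higher by 2.81 (2.42 after scaling), with counting intervals of 11.8 to 14.0 TPM in the Tsc2+/+ library and 91.8 to 100.1 TPM in the Tsc2-/- library. Smtn was higher by 2.31 (1.93) and Myl9 by 1.81 (1.43). These 5 genes stayed at least 2-fold higher in Tsc2-/- MEFs under every alternative setting tried, whereas Tpm1 fell below 2-fold with 5 TPM added, after scaling, in CPM and without short transcripts.

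The most abundant contractile genes differed less. Tpm1 was higher by 1.004 (0.62 after scaling), Tpm2 by 0.83 (0.45) and Acta2 by 0.81 (0.42). The scaled values of Tpm2 and Acta2 are ratios of 1.36 and 1.34. Actg2 differed by -0.05 (-0.26), resting on 52 and 25 counts in the Tsc2+/+ and Tsc2-/- libraries. Myh11 was below 1 TPM in both and was left out of the count, and it went against the direction of the 6 higher genes, at 0.393 TPM (80 counts) in the Tsc2+/+ library and 0.100 TPM (10 counts) in the Tsc2-/- library, with counting intervals of 0.316 to 0.489 and 0.0544 to 0.184 TPM.

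**Figure D3:**
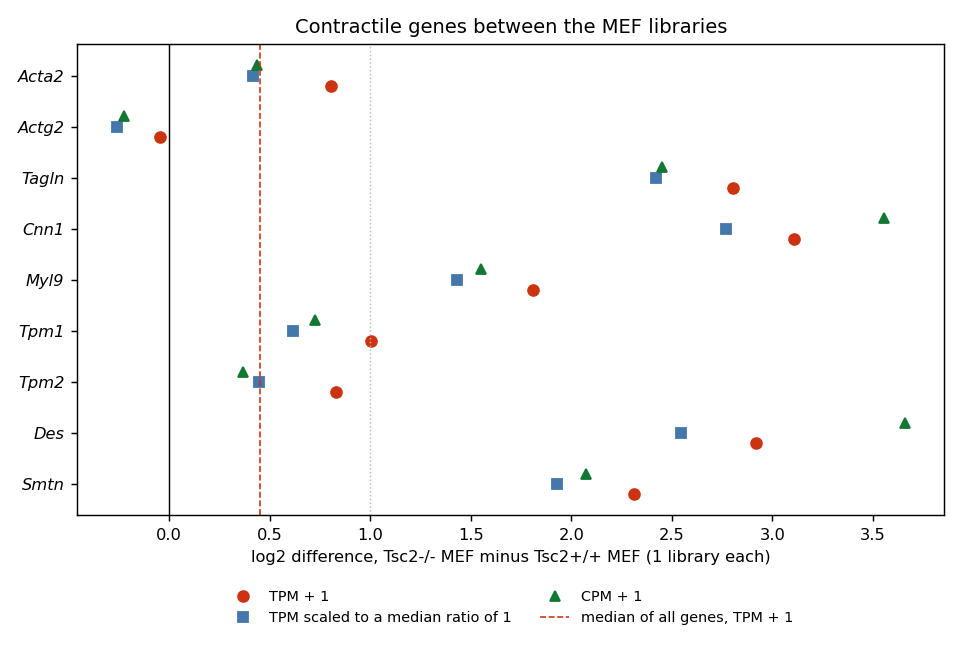
Log2 difference of each contractile gene between the Tsc2-/- and Tsc2+/+ MEF libraries (1 library each) on 3 scales, with the median of all genes for unscaled TPM, 0.45, as a dashed line and a 2-fold difference as a dotted line. Tagln, Cnn1, Myl9, Des and Smtn lie beyond 2-fold on all 3 scales, and Acta2 and Tpm2 lie below 2-fold on all 3.

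Tpm1 was made up of different transcripts in different libraries. The gene lies at chr9:67022590-67049406 (GRCm38, minus strand), and its 21 transcripts in the table fall into 13 with a distal start, which give the long tropomyosins, 7 with an internal start, which give short ones, and 1 other fragment. In Tsc2+/+ MEFs 56.4% of Tpm1 counts (95% Wilson interval 55.6 to 57.2%) were assigned to internal starts and 42.2% to distal starts. In Tsc2-/- MEFs internal starts had 25.8% (25.1 to 26.5%) and distal starts 73.6%. The unscaled TPM from internal starts was 180.1 in Tsc2+/+ and 175 in Tsc2-/- MEFs, and that from distal starts was 139 and 473, between libraries whose median ratio over genes was 1.31. In the kidney libraries distal starts held 86.5% and 90.3% in untreated and treated MKOC cells, and 90.4% and 93.4% in untreated and treated TJ cells.

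The transcripts also choose between alternative copies of exon 2 and of exon 6, and these exons are shown because the upstream copy of exon 2 is the one that smooth muscle is known to use. Capitals mark the bases that differ between the copies of a pair. The copies of exon 2 (126 bases each, 47.6% identical) lie at chr9:67048124-67048249 (upstream) and chr9:67047786-67047911 (downstream), and the copies of exon 6 (76 bases each, 56.6% identical) at chr9:67032466-67032541 and chr9:67031951-67032026, all given 5′ to 3′ along the gene.
Exon 2, upstream copy: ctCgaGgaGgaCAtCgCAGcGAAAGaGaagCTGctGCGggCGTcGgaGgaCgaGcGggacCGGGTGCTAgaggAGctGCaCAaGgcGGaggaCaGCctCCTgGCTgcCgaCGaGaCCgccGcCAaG
Exon 2, downstream copy: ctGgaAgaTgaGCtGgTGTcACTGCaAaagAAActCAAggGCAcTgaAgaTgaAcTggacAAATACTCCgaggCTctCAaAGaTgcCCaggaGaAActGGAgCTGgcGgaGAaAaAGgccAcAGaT
Exon 6, upstream copy: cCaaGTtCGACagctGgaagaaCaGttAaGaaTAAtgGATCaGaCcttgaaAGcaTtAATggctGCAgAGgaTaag
Exon 6, downstream copy: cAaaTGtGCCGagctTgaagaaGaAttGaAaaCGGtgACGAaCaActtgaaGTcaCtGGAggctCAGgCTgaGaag
The smooth muscle copy of exon 2 was rare in every library. Transcripts that hold it carried 0.133% of Tpm1 counts in Tsc2+/+ MEFs (19.2 counts) and 0.9997% in Tsc2-/- MEFs (153 counts), 1.16% and 0.764% in untreated and treated MKOC cells, and 1.76% and 2.24% in untreated and treated TJ cells. The downstream copy of exon 2, which other cells use, was in 42.1 to 91.2% of counts. Exon 6 differed between MEF and kidney libraries: the upstream copy was in 9.54% and 19.2% of counts in Tsc2+/+ and Tsc2-/- MEFs (intervals 9.07 to 10.03% and 18.6 to 19.9%) and in 53.8 to 65.5% in the kidney libraries. The transcript with the most counts was therefore Tpm1-211, with an internal start and the downstream exon 6, in Tsc2+/+ MEFs (54.5% of counts), Tpm1-216, with a distal start and the downstream exon 6, in Tsc2-/- MEFs (44.4%), and Tpm1-213, with a distal start and the upstream exon 6, in the 4 kidney libraries (53.5 to 64.1%). These shares are Kallisto's assignment of reads among overlapping transcripts, and their intervals do not cover errors of that assignment.

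**Figure D4:**
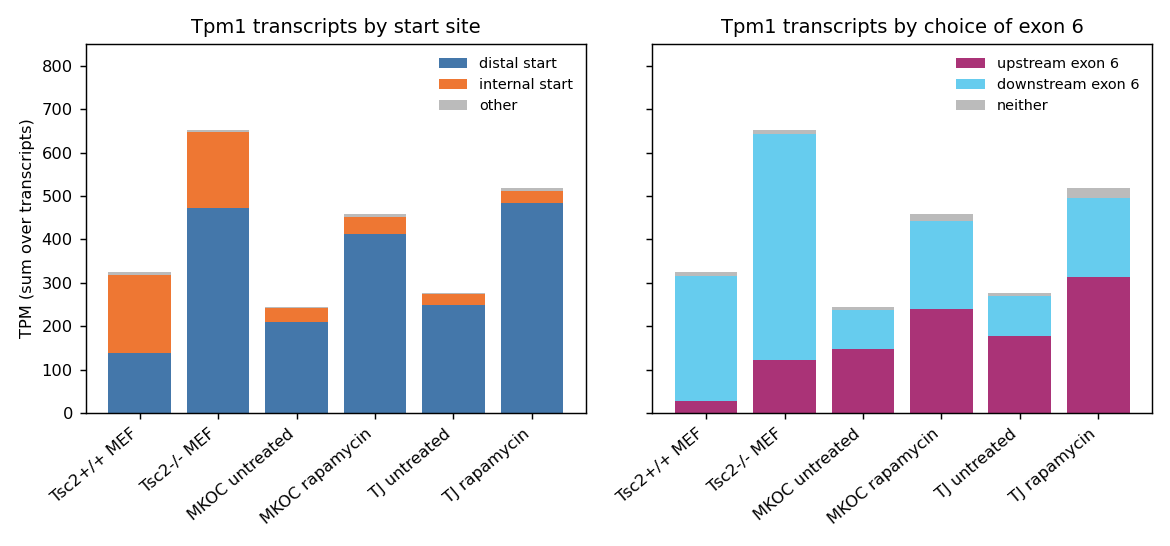
TPM of Tpm1 in the 6 libraries, stacked by the start site of the transcripts (left) and by the copy of exon 6 they hold (right). Internal starts gave 180.1 and 175 unscaled TPM in the Tsc2+/+ and Tsc2-/- MEF libraries, distal starts gave 139 and 473, and the upstream exon 6 prevailed only in the kidney libraries.

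The comparison of rapamycin with no treatment in the kidney lines asks which RNAs depend on mTORC1 in cells that lack Tsc2. Only the lines replicate the treatment (n = 2 per group, paired by line). The quasi-likelihood test of edgeR was run on all 12952 genes that passed a filter on low counts, and its p-values were adjusted by Benjamini-Hochberg. Of the 10 contractile genes, 8 passed that filter, 2 rose and 0 fell, and over all genes tested 17.5% rose and 17.4% fell. DESeq2 and limma also gave 2 and 0, and at an unadjusted p below 0.05 edgeR's test gave 2 and 0. Tpm1 and Smtn, the contractile genes above 10 TPM in the kidney lines, were the ones that rose. Tpm1 rose by a log2 fold change of 0.91 ± 0.10 (SE), with an adjusted p of 0.00013 in edgeR's test, and by 0.92 in MKOC cells and 0.90 in TJ cells as log2 ratios of CPM. Smtn rose by 0.70 ± 0.10 (SE), with an adjusted p of 0.00064 in the same edgeR test, and by 0.61 and 0.79 in MKOC and TJ cells. In linear terms these were rises of 1.88-fold for Tpm1 and 1.62-fold for Smtn, and for both genes each treated library was above both untreated libraries.

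The other 6 tested genes did not pass, and all of them rested on at most 47 counts per library. Acta2 had a log2 fold change of -1.04 ± 0.54 (edgeR adjusted p = 0.16), which was -1.87 in MKOC cells, where it went from 17 counts to 3, and -0.33 in TJ cells, where it went from 14 to 11. Actg2 had -0.40 ± 0.48, Tagln -0.17 ± 0.42, Cnn1 -0.05 ± 0.40, Tpm2 0.06 ± 0.48 and Des 0.19 ± 0.32. With standard errors of 0.32 to 0.54, small changes in these 6 genes were not detectable at this depth. Myh11 and Myl9 had too few counts to be tested.

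**Figure D5:**
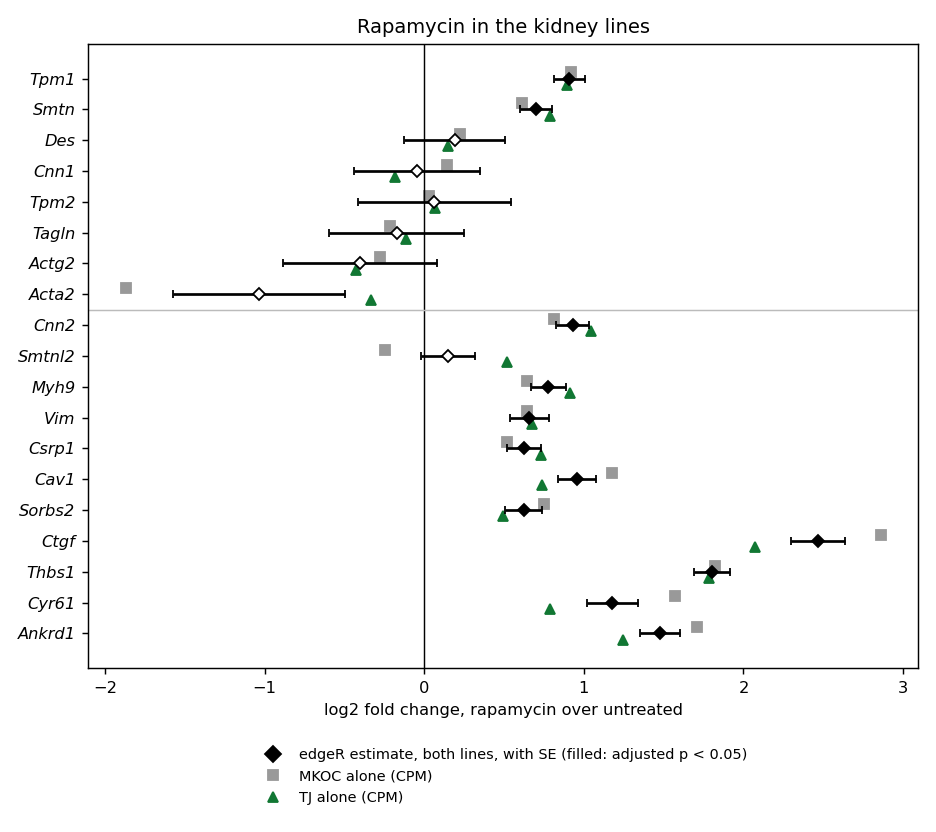
Log2 fold changes with rapamycin in the kidney lines for the 8 tested contractile genes (above the line) and 11 genes of related lists (below it), with edgeR's estimate and its SE over both lines and the change of CPM in each line alone. Tpm1 (0.91) and Smtn (0.70) are the contractile genes with filled symbols, and Ctgf has the largest change shown (2.47).

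Within Tpm1, the TPM of transcripts from distal starts went from 209.7 to 414 in MKOC cells and from 249.6 to 484 in TJ cells. Entered in the same fit in place of the sum, distal transcripts rose by 0.96 ± 0.10 (edgeR adjusted p = 8.7e-05). Internal transcripts went from 32.3 to 38.7 TPM in MKOC cells and from 24.3 to 26.8 in TJ cells, with a log2 fold change of 0.30 ± 0.12 that did not pass (edgeR adjusted p = 0.069). The 1 other fragment rose by 1.25 ± 0.26, and all transcripts without exon 2, which are the internal ones and that fragment, rose by 0.40 ± 0.11 (edgeR adjusted p = 0.0043 and 0.020). The difference between the starts was not tested. Transcripts with the downstream exon 6 rose by 1.11 ± 0.10 and those with the upstream exon 6 by 0.76 ± 0.10 (edgeR adjusted p = 4.9e-05 and 0.00034), and transcripts with the smooth muscle exon 2 rose by 0.83 ± 0.26 (edgeR adjusted p = 0.029). For the latter the lines differed, with 2.63 and 3.33 TPM (84.8 and 82.6 counts) in untreated and treated MKOC cells and 4.69 and 11.1 TPM (133 and 318 counts) in TJ cells. When only the transcript with the most counts stood for each gene and the test was run over transcripts, Tpm1 (0.75) and Smtn (0.70) no longer passed, with edgeR adjusted p of 0.17 for both.

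Further smooth muscle genes were described from a list of 22, such as myosin light chain kinase, caldesmon and the LIM proteins of the contractile apparatus. Of the 11 that reached 1 TPM in a MEF library, 6 were at least 2-fold higher in Tsc2-/- MEFs and 0 lower (4 and 1 after scaling), with a median log2 difference of 1.01. Beside the counts of this and each later list stand the shares over all genes, which were 25.2% higher and 5.18% lower between the MEF libraries (15.8% and 8.21% after scaling), and 17.5% higher and 17.4% lower with rapamycin. Fhl1, a LIM protein of striated and smooth muscle, had 0.136 TPM in Tsc2+/+ MEFs and 22.9 in Tsc2-/- MEFs, and Pdlim7 had 16.9 and 77.6. With rapamycin 4 of 11 tested rose and 0 fell (5 and 0 at an unadjusted p below 0.05, and 4 and 0 with DESeq2 and with limma). Cav1, the coat protein of caveolae, rose by 0.96 ± 0.12, Csrp1 by 0.63 ± 0.11 and Sorbs2 by 0.62 ± 0.12 (edgeR adjusted p = 0.00032, 0.0018 and 0.0026). The 4th was Mylk, named after its values were seen, at no more than 1.57 TPM in any library. Cald1, caldesmon, was at 202 to 542.5 TPM in all 6 libraries and did not pass (0.21 ± 0.10, edgeR adjusted p = 0.13).

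The non-muscle relatives of the set had summed levels of 8203 and 9412 TPM in the MEF libraries and 10124 to 14912 TPM in the kidney libraries for 14 genes, of which all but Smtnl2 (0.146 TPM in Tsc2+/+ MEFs) reached 1 TPM in every library. Of these, 6 were at least 2-fold higher and 1 lower in Tsc2-/- MEFs (2 and 1 after scaling). The lower one was Vim (-1.65), and among the higher ones were Cnn2, non-muscle calponin (1.60), Myh9, non-muscle myosin heavy chain (1.32), and Smtnl2, smoothelin-like 2 (2.17). With rapamycin 5 of 14 rose and 0 fell (5 and 0 unadjusted and with DESeq2, 4 and 0 with limma). Cnn2 rose by 0.93 ± 0.11, Myh9 by 0.78 ± 0.11 and Vim by 0.66 ± 0.12 (edgeR adjusted p = 0.00017, 0.00067 and 0.0028), whereas the cytoplasmic actins Actb (0.24 ± 0.12) and Actg1 (0.13 ± 0.11) did not pass.

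The regulators of the set showed SRF in all 6 libraries and its muscle-specific partner below 1 TPM in each. Srf was at 24.8 and 30.4 TPM in Tsc2+/+ and Tsc2-/- MEFs and 10.5 to 14.1 TPM in the kidney libraries, and Myocd, myocardin, was at 0.0190 TPM (2 counts) in Tsc2+/+ MEFs, 0.296 TPM (21 counts) in Tsc2-/- MEFs and at most 1 count in each kidney library. Mkl1 and Mkl2, which encode the myocardin-related factors, were at 8.18 and 5.37 TPM in Tsc2+/+ MEFs, 28.6 and 8.85 in Tsc2-/- MEFs, and 22.0 to 25.8 and 5.98 to 9.12 in the kidney libraries. Of 13 regulators that reached 1 TPM in a MEF library, 6 were at least 2-fold higher in Tsc2-/- MEFs and 1 was lower, with the same counts after scaling. Gata6, a GATA factor of smooth muscle and mesothelial cells, had 0.0211 TPM in Tsc2+/+ MEFs and 33.9 in Tsc2-/- MEFs, and Prrx1, a mesenchymal homeobox gene, had 261 and 60.6. With rapamycin 3 of 9 tested regulators rose and 1 fell (3 and 2 at an unadjusted p below 0.05, and 2 and 1 with DESeq2 and with limma), beside 17.5% and 17.4% of all genes tested. Klf5, which promotes smooth muscle genes, rose by 0.58 ± 0.15 (edgeR adjusted p = 0.015), and Klf4, which represses them, fell by 0.68 ± 0.12 (edgeR adjusted p = 0.0023). The others were Mkl2 (0.54 ± 0.11) and Foxf1 (1.34 ± 0.29), named after their values were seen.

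Targets of SRF that mark growth and tension, several of which are also targets of YAP and of TGF-beta, were described beside the contractile genes. Of 13 tested, 9 rose with rapamycin and 0 fell (10 and 0 unadjusted, 7 and 0 with DESeq2, 9 and 0 with limma), with a median log2 fold change of 1.20 against 0.02 for all genes. Ctgf, connective tissue growth factor, was at 19.8 and 145 TPM in untreated and treated MKOC cells and 26.3 and 112 in TJ cells, and rose by 2.47 ± 0.17. Thbs1, thrombospondin 1, rose by 1.80 ± 0.11, Ankrd1, a muscle ankyrin repeat protein, by 1.48 ± 0.12, and Cyr61 by 1.18 ± 0.16 (edgeR adjusted p = 1.2e-05, 7.9e-06, 3.1e-05 and 0.00047 in the order named). Between the MEF libraries, 9 of 12 were at least 2-fold higher in Tsc2-/- cells and 0 lower (6 and 1 after scaling), with Ctgf at 0.0431 and 52.1 TPM and Thbs1 at 9.63 and 165 TPM. The TGF-beta pathway drives myofibroblasts. Of its 17 tested genes 11 rose with rapamycin and 0 fell, beside 17.5% and 17.4% of all genes (12 and 0 unadjusted, 9 and 0 with both DESeq2 and limma), among them Ltbp2 (1.78 ± 0.13) and Ltbp1 (1.60 ± 0.12), which store the ligand in the matrix, and Tgfbr2, the type II receptor (0.69 ± 0.10). In Tsc2-/- MEFs 6 of 16 were at least 2-fold higher and 1 lower (4 and 1 after scaling), beside 25.2% and 5.18% of all genes, with Tgfb2 at 2.75 and 21.1 TPM in Tsc2+/+ and Tsc2-/- cells.

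Other muscle and stromal cell types were checked with marker lists. Of 22 striated muscle genes, 5 or 6 reached 1 TPM in each kidney library and 2 or 3 in the MEF libraries, and Myod1, Myog and the fast myosin heavy chains Myh1, Myh2 and Myh4 were listed at 0 in all 6. Tnnc2, a troponin C, was at 14.5 to 57.1 TPM in the kidney libraries, and Tnnt2, cardiac troponin T, rose there from 4.87 to 17.3 TPM in MKOC and from 4.16 to 12.9 TPM in TJ cells (log2 fold change 1.61 ± 0.23, edgeR adjusted p = 0.00060). Tnni2 was the other striated gene that rose with rapamycin, of 6 tested, and was named after its values were seen. Pericyte markers summed to 46.0 and 37.0 TPM in Tsc2+/+ and Tsc2-/- MEFs and 2.14 to 2.95 TPM in the kidney libraries, with Cspg4 at 11.9 and 0.657 TPM in the MEF libraries. Of the 4 that reached 1 TPM in a MEF library, 2 were at least 2-fold higher in Tsc2-/- MEFs and 1 lower (2 and 1 after scaling). The higher ones, named after their values were seen, were Mcam at 0.548 and 9.34 TPM and Notch3 at 0.137 and 2.58 TPM. With rapamycin Notch3 had the smallest adjusted p among the 5 tested pericyte markers (-1.55 ± 0.58, edgeR adjusted p = 0.061) and was named after its values were seen. This value rested on 12 and 2 counts in untreated and treated MKOC cells and 11 and 5 in TJ cells.

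Genes of the myofibroblast matrix summed to 3775 and 4031 TPM over 13 genes in Tsc2+/+ and Tsc2-/- MEFs, against 209 to 287.5 TPM in the kidney libraries, and 8 of 12 were lower in all 4 kidney libraries than in both MEF libraries, beside 21.4% of all genes. Among the others were Col5a1, a fibrillar collagen, at 22.1 and 42.3 TPM in the MEF libraries and 27.9 to 33.5 in the kidney libraries, and Fap, fibroblast activation protein, at 0.0474 TPM in Tsc2+/+ MEFs and 0.0370 to 0.167 in the kidney libraries, both named after their values were seen. Of 12 that reached 1 TPM in a MEF library, 4 were at least 2-fold higher and 2 lower in Tsc2-/- cells (3 and 3 after scaling), and the shares over all genes were 25.2% and 5.18%. Cdh11, a mesenchymal cadherin, had 0.370 and 53.4 TPM and Fbn1, fibrillin 1, 0.498 and 22.3, while Postn, periostin, had 52.95 and 5.43 TPM in Tsc2+/+ and Tsc2-/- cells. Of 8 LAM markers that reached 1 TPM in a MEF library, 3 were at least 2-fold higher in Tsc2-/- MEFs and 1 lower (3 and 2 after scaling), set against the same shares. The higher ones, named after their values were seen, were Mlana (0.149 and 4.53 TPM), Flt4 (listed at 0, and 4.41 TPM) and Pdpn (24.8 and 76.3 TPM). The lower one, Gpnmb, a melanosomal protein, was at 98.3 and 11.4 TPM in Tsc2+/+ and Tsc2-/- MEFs and at 338 to 398 TPM in the kidney libraries. Figf, the gene of VEGF-D, rose with rapamycin by 1.06 ± 0.26 and Pdpn, podoplanin, by 0.43 ± 0.11 (edgeR adjusted p = 0.010 and 0.014), the 2 of 5 tested that did. Taken line by line, Figf had log2 ratios of CPM of 1.71 (MKOC) and 0.40 (TJ).

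Over the 6 libraries, the genes whose log2(TPM + 1) followed Acta2 most closely among 10115 genes with at least 10 TPM in some library were Unc119, Fkbp10, Ogn, Eno1b and Gypc, and among those closest to Tagln were Vnn1, Arhgef17, Nme4 and Ak5. All had a Pearson correlation of at least 0.999. With 6 libraries from 4 lines, of which only the MEF libraries held either gene above 1 TPM, these correlations rest on the split between MEF and kidney libraries and on the difference between the MEF libraries, and carry no p. Fkbp10, which encodes a collagen chaperone, was at 76.0 and 122 TPM in Tsc2+/+ and Tsc2-/- MEFs and at most 0.272 TPM in the kidney libraries.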

How the data were processed

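The labels name Kallisto as the authors' quantifier, and the study's methods describe trimming of the reads before it. The authors deposited estimated counts and TPM for 88198 transcripts in 6 libraries, and the version and the mouse annotation are not given in the sources used here. Libraries were made with a stranded mRNA kit. The deposited fold changes between the MEF libraries, which are ratios, were not used except for the gene symbols beside them. Estimated counts and TPM were summed per symbol (30281 symbols). Transcripts with no symbol held 0.372 to 0.468% of a library's counts and were left out of sums and tests, and 8 transcripts with 2 symbols were given the first. Positions came from GENCODE M21 (GRCm38), whose transcript lengths differ from the deposited ones for Acta2, Tagln, Cnn1, Myh11 and 1 of 5 transcripts of Actg2.

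MEF and line differences are of log2(TPM + 1), with genes of at least 1 TPM in a library compared. TPM intervals are 95% Wilson intervals of the count's share, and the floor is 3 counts. For rapamycin, summed estimated counts were rounded and low genes removed by filterByExpr. The quasi-likelihood model of edgeR used TMM factors and took the cell line as a block (residual degrees of freedom: 1), and p-values were adjusted by Benjamini-Hochberg at 0.05. Each SE given with edgeR's estimate was derived, as the absolute log2 fold change divided by the square root of the F statistic of its test. The labels give each library's line and so the pairing, and deviations from the treatment mean correlated at 0.56 between the libraries of a line over 12952 genes. Nothing says that the libraries are separate cultures beyond the lines. The block removes the difference in level between lines, so p-values rest on how far the lines differ in their change with rapamycin. The quasi-likelihood model moderates that spread with information from all genes tested. The fit was tested on simulated data.

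The 10 genes, the lists of related genes and the markers were chosen with earlier results of these data known. Some genes of the lists are said above to be named after their values were seen, and they fall outside the rule that follows. The other genes named from the lists had at least 10 TPM in some library and passed the rapamycin test or differed at least 4-fold between the MEF libraries. At most 4 were named per list, or all where a list had at most 5. The 5 genes most correlated with Acta2 and with Tagln were also named, and some results of these rules are not reported here. Srf, Mkl1, Myocd, Cald1, Actb, Actg1, other members of the actin, tropomyosin and myosin families and the markers of other cell types fall outside these rules and were named for their role, with their values known. Alternatives were other added values (0.1, 0.5 and 5 TPM), scaling, CPM, no transcripts under 300 bases, other normalizations, DESeq2, limma, no block, no filter, and the main transcript in place of the sum. The split of Tpm1 was chosen after seeing the data. Versions were R 4.3.3, edgeR 4.0.16, limma 3.58.1, DESeq2 1.42.0, Python 3.11.15, numpy 2.4.6, pandas 2.3.3 and matplotlib 3.10.9.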

Additional observations from a re-analysis of the deposited data

Results flagged for a closer look

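Among the genes that the naming rule took from the related lists and that reached 10 TPM in a kidney library, Pdlim7 and Smtnl2 had changes of opposite sign in the kidney lines. For Pdlim7, a LIM protein that binds actin filaments, log2(TPM + 1) changed with rapamycin by -0.26 in MKOC cells and by 0.42 in TJ cells, and the TJ change minus the MKOC change was 0.68. For Smtnl2, smoothelin-like 2, it changed by -0.03 in MKOC cells and by 0.51 in TJ cells, and the TJ change minus the MKOC change was 0.55. Smtnl2 in MKOC cells was at 13.1 TPM untreated and 12.8 TPM treated, with overlapping counting intervals of 12.2 to 14.2 and 11.7 to 14.1 TPM, so a change there was not detectable at this depth. With 1 library per line and treatment, neither difference was tested. Genes named outside that rule or below that level also had changes of opposite sign, among them Mcam (0.51 in MKOC and -0.16 in TJ cells, at no more than 1.63 TPM), Myl12a (-0.05 and 0.38), Pax8 (-0.22 and 0.16), Tgfb2 (-0.20 and 0.13) and Mkl1 (-0.22 and 0.02), and these were not tested either.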

How the results depend on the processing

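The rises of Tpm1 and Smtn with rapamycin passed under upper-quartile scaling, library totals, no filter, DESeq2, limma and without the line as a block (edgeR adjusted p = 0.024 and 0.025 without the block), with log2 fold changes of 0.90 to 0.95 for Tpm1 and 0.70 to 0.76 for Smtn, and with 0.61 to 0.79 for Smtn in the lines alone. With the main transcript in place of the sum, 0 of the contractile genes passed instead of 2 (edgeR adjusted p = 0.17 for both genes), in a test run over transcripts. The log2 fold changes there were 0.75 for Tpm1 and 0.70 for Smtn, and no tested transcript of the contractile genes had an edgeR adjusted p below 0.17. Without the block the number of all genes called fell from 4526 to 1275. Genes that never passed changed sign in a few settings: Actg2 was 0.010 with limma, Tpm2 was -0.075 with limma and -1.349 for its main transcript, and Cnn1 was -0.183 to 0.141 when 1 line was left out. Leaving out 1 line gives a value with no test, so no counts of calls exist for it. Between the MEF libraries, genes at least 2-fold higher and lower numbered 3222 and 662, 1830 and 309 with 5 TPM added, and 2019 and 1048 after scaling, while the contractile genes numbered 5 or 6 and 0. Between TJ and MKOC cells, genes 2-fold apart numbered 346 untreated and 519 treated, 732 and 890 with 0.1 TPM added, and 99 and 163 with 5 TPM added, with 0 contractile genes in each. The causes of these shifts were not tested. Depth limits the kidney values of Acta2, Actg2, Tagln, Cnn1, Myh11, Myl9 and Tpm2, which rest on 0 to 26 counts.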
